A study of Mus musculus with 8 samples.

Results

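The genes described here carry out the uptake, binding and sensing of bile acids in the ileum, the last stretch of the small intestine. They were listed by name, and earlier results of these data were known when they were chosen. They are the cytosolic bile acid-binding protein Fabp6, the bile acid carrier Slc10a2 and the hormone gene Fgf15. The other members are the bile acid receptor gene Nr1h4 and the repressor gene Nr0b2. Each of the 5 genes was named by 1 probe set, which makes 5 probe sets of the 22690 on the array and 5 genes of the 12394 that had a probe set with a single symbol. Small intestine was taken from 6-week-old female C57/Black6 mice injected intraperitoneally each day for 5 days. The vehicle group received dimethyl sulfoxide (DMSO), the dexamethasone group 15 mg/kg of this synthetic glucocorticoid, the DBZ group 10 umol/kg of this gamma-secretase inhibitor, which blocks Notch signalling, and the combination group both drugs. The labels name no mutation or transgene in any group, and describe the tissue as unprocessed small intestine with no segment or position along the gut. The labels list 8 samples, 2 in each of 4 groups, but the 2 DBZ columns held the same value in 22684 probe sets, so DBZ was counted as 1 array and 7 distinct arrays remained.

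Bile acids that reach the ileum enter the enterocyte through the apical sodium-dependent carrier encoded by Slc10a2, bind the abundant cytosolic protein encoded by Fabp6, and leave toward the portal blood through the basolateral exporter Slc51a with its partner Slc51b. Inside the cell they activate FXR, the nuclear receptor encoded by Nr1h4, which acts with the retinoid X receptors and is known to raise Fabp6, Fgf15, Nr0b2 and the exporter genes. FGF15 travels to the liver, where it acts through the receptor Fgfr4 and the co-receptor Klb to lower Cyp7a1, the rate-limiting enzyme of bile acid synthesis, while the Nr0b2 product SHP represses transcription, including that of Slc10a2. Fabp6, Slc10a2 and Fgf15 are known for expression that is high in the ileum and low further up the small intestine.

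The stretches upstream of 3 of these genes are printed because each holds a match to a binding motif of a factor of this pathway or of the enterocyte. RefSeq promoter windows of build GRCm38.p6 were found for 4 of the 5 genes, and the 250 bases before the start of each gene are given 5′ to 3′ on the gene's strand, with the matched letters in capitals. The window of Fabp6 lay at chr11:43601563-43601812 on the minus strand, that of Slc10a2 at chr8:5105288-5105537 on the minus strand, and that of Nr0b2 at chr4:133553126-133553375 on the plus strand.
Fabp6: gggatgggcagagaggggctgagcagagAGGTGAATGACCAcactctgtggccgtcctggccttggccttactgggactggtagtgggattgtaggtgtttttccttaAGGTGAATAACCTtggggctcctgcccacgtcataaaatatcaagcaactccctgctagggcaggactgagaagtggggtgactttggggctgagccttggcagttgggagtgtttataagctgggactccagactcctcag
Slc10a2: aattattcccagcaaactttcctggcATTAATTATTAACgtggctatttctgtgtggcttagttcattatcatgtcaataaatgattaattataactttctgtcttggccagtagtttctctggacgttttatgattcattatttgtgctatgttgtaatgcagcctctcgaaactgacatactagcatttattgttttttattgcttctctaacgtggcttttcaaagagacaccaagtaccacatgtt
Nr0b2: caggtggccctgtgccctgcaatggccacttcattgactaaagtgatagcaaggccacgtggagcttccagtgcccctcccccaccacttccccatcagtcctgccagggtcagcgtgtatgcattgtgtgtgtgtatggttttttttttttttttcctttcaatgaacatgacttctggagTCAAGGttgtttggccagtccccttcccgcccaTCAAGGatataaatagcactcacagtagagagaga
The capitals in Fabp6 mark matches to the FXR inverted repeat AGGTCANTGACCT, at -222 to -210 and at -142 to -130 from the start, each with 2 mismatches. Both strands were searched and up to 2 mismatches were allowed, a limit under which 1.14% of all 32851 windows held a match; these and the following shares are over windows of 300 bases, which also hold the first 50 of the gene. In Slc10a2 the capitals mark the HNF1 inverted repeat GTTAATNATTAAC with 1 mismatch at -224 to -212, and 0.207% of all windows held a match with at most 1 mismatch. In Nr0b2 they mark the core TCAAGG of LRH-1, the product of Nr5a2, at -68 to -63 and at -35 to -30, a short motif present on either strand in 14.4% of windows. An exact match to the glucocorticoid receptor inverted repeat GNACANNNTGTNC was in 0.475% of windows and in none of the 4. The window of Nr1h4, at chr10:89506659-89506908 on the minus strand, held no match to any of these letters. The mismatch limits were chosen after these windows had been read, and a match describes letters only.

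Signals are MAS5 values after scaling each array to a common trimmed mean, since the deposited vehicle arrays had a trimmed mean of 500 and the treated arrays one of 250. The number of arrays limits the precision. Spearman correlations over all probe sets were 0.950 to 0.959 within groups, 0.940 to 0.959 between treated groups and 0.925 to 0.940 between vehicle and treated arrays. Changes are differences of log2(signal + 12.3), where 12.3 is the pooled 20th percentile of the signal, so changes of low genes are understated. The probe sets tested were the 13638 with a mean signal of at least 38.8, the pooled 40th percentile, and calls were made with limma at an adjusted p of 0.05. The table had no detection calls. Fabp6 and Slc10a2 passed this limit only through their treated arrays and Nr0b2 only through its vehicle arrays, and Fgf15 did not pass, so counts over the 4 tested genes are given as a description.

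The bile acid-binding gene was at the bottom of the scale in vehicle intestine and far above it in all treated arrays. Fabp6 read 0.640 and 1.22 in vehicle replicates 1 and 2, 3324 and 10013 in dexamethasone replicates 1 and 2, 11866 under DBZ, and 1190 and 1116 in combination replicates 1 and 2. No treated array overlapped vehicle: the lowest of them, at 1116, was 90.6 times the pseudocount, while both vehicle arrays lay below it. The dexamethasone arrays differed by 3.01-fold between themselves, and the combination arrays by 1.07-fold. A signal below the pseudocount does not show that the gene was silent.

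The carrier gene Slc10a2 read 1.70 and 7.09 in the vehicle group, 96.9 and 149.6 in the dexamethasone group, 164 under DBZ, and 73.9 and 17.4 in the combination group. No treated array overlapped vehicle here either, but the combination arrays lay 4.25-fold apart and the lower one was only 1.41 times the pseudocount.

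**Figure D1:**
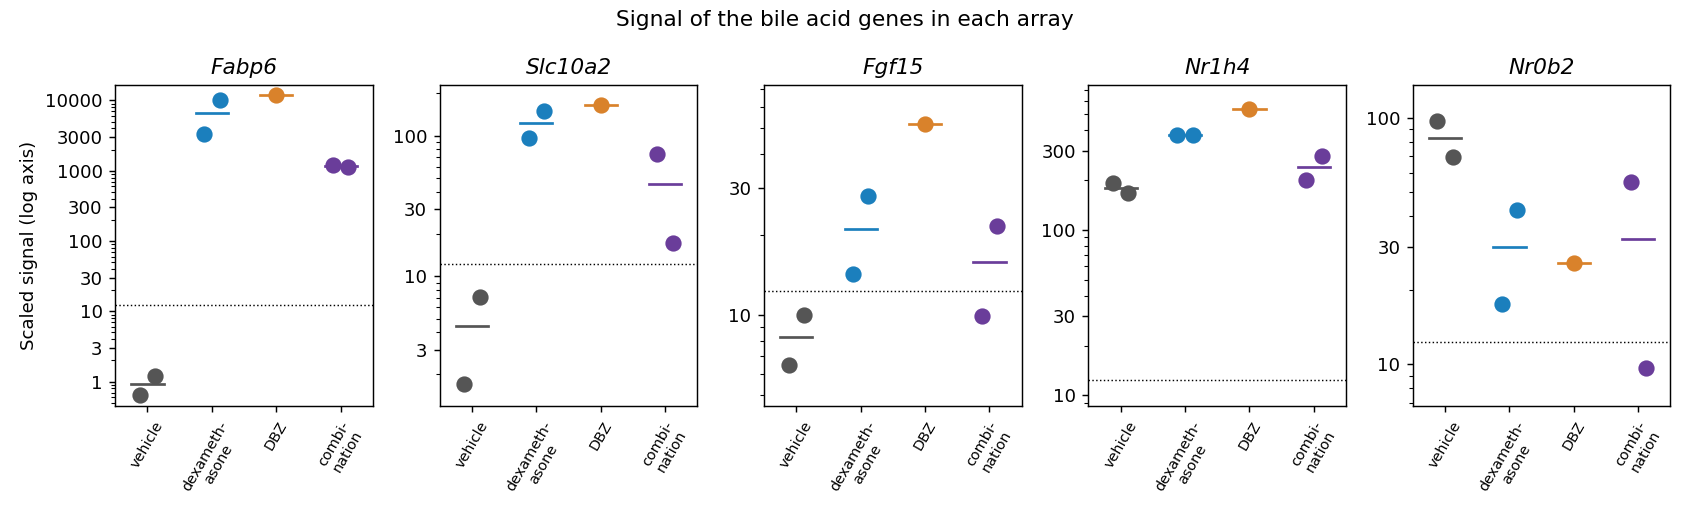
Scaled MAS5 signal (log axis, a separate range in each panel) of Fabp6, Slc10a2, Fgf15, Nr1h4 and Nr0b2 in each array, as points by group, with group means as bars and the pseudocount of 12.3 as a dotted line; the DBZ group has 1 array. Fabp6 and Slc10a2 lie below the line with vehicle and above it in all treated arrays, Nr1h4 spans 167 to 534, and Nr0b2 is highest in the vehicle arrays.

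Fgf15, the hormone of this axis, stayed near the low end of the scale. It read 6.51 and 10.01 in the vehicle group, 14.3 and 27.8 in the dexamethasone group, 52.0 under DBZ, and 9.96 and 21.6 in the combination group. The DBZ array was the highest of the 7 and both dexamethasone arrays lay above vehicle, whereas the combination overlapped vehicle. The mean of 20.3 kept Fgf15 out of the test, and its differences from vehicle, 0.67, 1.65 and 0.42 on the log2 scale for dexamethasone, DBZ and the combination, are given as values. In a limma fit with no limit on low signals their adjusted p was 0.385, 0.103 and 0.608.

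The receptor gene Nr1h4 was well measured in every group. Vehicle arrays read 192 and 167, dexamethasone arrays 374.5 and 374.6, the DBZ array 534, and combination arrays 199.9 and 279. The single-drug arrays lay above every vehicle and combination array, and both combination arrays lay above vehicle, replicate 1 narrowly.

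Nr0b2, which encodes the repressor SHP, had its highest signals in the vehicle group. Vehicle arrays read 97.5 and 69.4, dexamethasone arrays 17.6 and 42.6, the DBZ array 25.9, and combination arrays 55.0 and 9.67. Both vehicle arrays were above all treated arrays, and the 3 treated groups overlapped one another, with the combination arrays 5.69-fold apart.

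The binding protein, the carrier and the receptor were higher in the dexamethasone group than with vehicle. Fabp6 rose by 8.77 ± 0.39 (log2 change ± SE, n = 2 against 2 arrays, limma, adjusted p = 6.12e-06), Slc10a2 by 3.01 ± 0.48 (adjusted p = 0.00453) and Nr1h4 by 1.02 ± 0.20 (adjusted p = 0.0125). These were 3 of the 4 tested genes. Fabp6 and Slc10a2 passed the limit on mean signal only through their treated arrays, so this count is a description. Over all tested probe sets 7.22% rose and 4.82% fell. Nr0b2 had a log2 change of -1.22 ± 0.52 that did not pass (adjusted p = 0.163), although it was called in the values as deposited (-2.13, adjusted p = 0.00557). The call of Nr1h4 ended without vehicle replicate 2 (0.92, adjusted p = 0.0666), dexamethasone replicate 1 (1.02, adjusted p = 0.0712) or dexamethasone replicate 2 (1.02, adjusted p = 0.0529), and in the values as deposited, in which the median change of all tested probe sets was -0.92 and that of Nr1h4 0.06. With a pseudocount of 1 or 50 in place of 12.3, the Fabp6 change was 11.56 or 6.84 and the Slc10a2 change 4.70 or 1.66, all still called.

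The DBZ array had the highest signal of the 7 for Fabp6, Slc10a2, Fgf15 and Nr1h4. Fabp6 rose by 9.81 ± 0.48 (1 against 2 arrays, limma, adjusted p = 2.13e-05), Slc10a2 by 3.42 ± 0.58 (adjusted p = 0.0105) and Nr1h4 by 1.51 ± 0.25 (adjusted p = 0.00994). Again 3 of the 4 tested genes rose, a count that the limit on mean signal shaped in the same way. Over all tested probe sets 3.75% rose and 4.6% fell. Nr0b2 had a log2 change of -1.31 ± 0.64 (adjusted p = 0.225), and was called in the values as deposited (-2.21, adjusted p = 0.0138). The median change of all tested probe sets as deposited was -0.999, and less that median Nr0b2 was at -1.21. The fit of DBZ against vehicle takes the spread of the single DBZ array to equal that of the other groups. The Nr1h4 call ended in the values as deposited (0.56). A pseudocount of 50 lowered the Slc10a2 change to 1.98, and one of 1 raised it to 5.14.

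With both drugs, Fabp6 was still far above vehicle and the other genes were not called. Fabp6 rose by 6.46 ± 0.39 (2 against 2 arrays, limma, adjusted p = 5.78e-05), the only call among the 4 tested genes, where 4.38% of all tested probe sets rose and 3.06% fell. The changes of Slc10a2 (1.62 ± 0.48, adjusted p = 0.0704), Nr1h4 (0.38 ± 0.20, adjusted p = 0.290) and Nr0b2 (-1.30 ± 0.52, adjusted p = 0.161) did not pass. Slc10a2 was called with a pseudocount of 1 (2.99, adjusted p = 0.0409). Without combination replicate 2, its lower array, the Slc10a2 change was 2.39. That fit leaves 1 combination array and loses the spread between the pair, so no call is drawn from it. In the values as deposited, with a median of -0.99 over all tested probe sets, Nr1h4 turned to -0.57, Slc10a2 was 1.31 and Nr0b2 -2.20, all called. All 3 comparisons against vehicle used the same vehicle arrays.

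With all arrays in the fit, the only call of these genes between treated groups was Fabp6 in the combination against DBZ. In that comparison 3 of the 4 tested genes had an unadjusted p under 0.05 in limma, as did 1683 of all 13638 tested probe sets. Against DBZ, Fabp6 was lower with the combination (fell by 3.35, SE 0.48, limma, adjusted p = 0.0446), 1 call among the 4 tested genes where 0.0293% of all tested probe sets fell. Slc10a2 was at -1.80 ± 0.58 (adjusted p = 0.252) and Nr1h4 at -1.13 ± 0.25 (adjusted p = 0.113), and Nr0b2 at 0.01 ± 0.64 (adjusted p = 0.996), none of them called. The Fabp6 call lay at the threshold: its adjusted p was 0.0557 without vehicle replicate 1, 0.0548 without vehicle replicate 2, 0.249 and 0.247 without combination replicates 1 and 2, and 0.0569 without both vehicle arrays, while its change stayed between -3.40 and -3.24 over all alternatives.

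Against dexamethasone, none of the 4 genes was called by limma in the combination. An unadjusted p under 0.05 was found for 3 of them and for 1277 of all 13638 tested probe sets. Fabp6 was at -2.31 ± 0.39 (adjusted p = 0.0996), Slc10a2 at -1.39 ± 0.48 (adjusted p = 0.413), Nr1h4 at -0.64 ± 0.20 (adjusted p = 0.390) and Nr0b2 at -0.08 ± 0.52 (adjusted p = 0.974). Only 0.0293% of all tested probe sets were called in either direction. Fabp6 was at -3.11 without dexamethasone replicate 1 and at -1.52 without dexamethasone replicate 2. Each of these fits leaves 1 dexamethasone array and loses the spread between that pair, so no call is drawn from them.

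Between DBZ and dexamethasone given alone, none of the tested genes was called with all arrays in the fit. The differences of DBZ from dexamethasone were 1.04 ± 0.48 for Fabp6 (95% interval -0.03 to 2.11, limma, adjusted p = 0.341), 0.41 ± 0.58 for Slc10a2 (adjusted p = 0.783), 0.50 ± 0.25 for Nr1h4 (adjusted p = 0.385) and -0.09 ± 0.64 for Nr0b2 (adjusted p = 0.964). None of the 4 had an unadjusted p under 0.05 in limma, against 2081 of all 13638 tested probe sets. After adjustment 0.337% of all tested probe sets were called in either direction. Without dexamethasone replicate 2, the higher of its arrays for Fabp6, the Fabp6 difference was 1.83. That fit compares 1 array with 1 and loses the spread between the dexamethasone arrays, so no call is drawn from it.

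**Figure D2:**
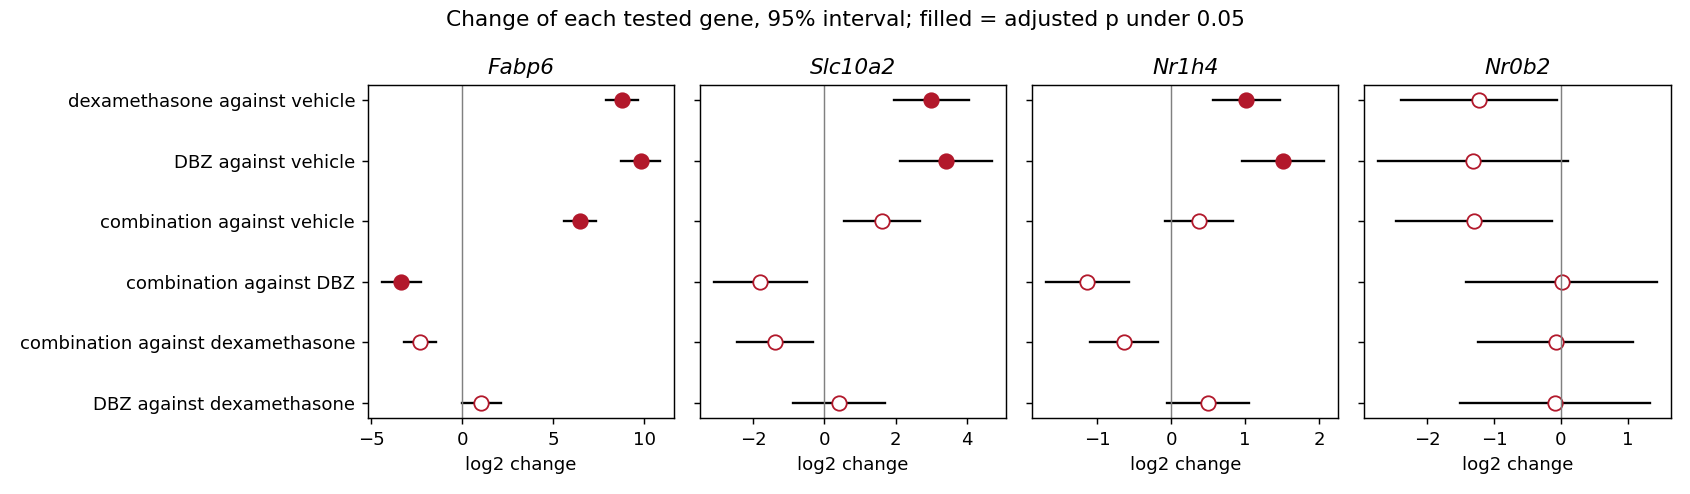
Log2 change (horizontal axes, with different ranges) of the 4 tested genes in 6 comparisons, as the limma estimate with its 95% interval; filled points have an adjusted p under 0.05. Fabp6, Slc10a2 and Nr1h4 are filled for dexamethasone and for DBZ against vehicle, Fabp6 also for the combination against vehicle and against DBZ, and no point of Nr0b2 is filled.

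The difference that went with DBZ was tested with and without dexamethasone. Without dexamethasone DBZ went with more Fabp6, Slc10a2 and Nr1h4, and with dexamethasone it went with lower values of the same genes. This difference of differences, the interaction, was -12.12 ± 0.62 for Fabp6 (limma, adjusted p = 4.48e-05), -4.81 ± 0.75 for Slc10a2 (adjusted p = 0.0118) and -2.15 ± 0.32 for Nr1h4 (adjusted p = 0.00939). The limit on mean signal shaped this count of 3 of the 4 tested genes too, so it is a description. Over all tested probe sets 1.93% were called in this direction. Nr0b2 had 1.23 ± 0.82 (adjusted p = 0.442) and Fgf15, which was not tested, -1.90. Position and muscle markers had the same kind of interaction: of 12 tested ileal markers 6 were called lower (median -2.18), of 16 proximal markers 8 were called higher (median 0.96), and all 7 smooth muscle markers were lower, 2 of them called (median -1.86). Over all tested probe sets the median was 0.0021 and 2.07% were called higher. Their part in the interaction of the bile acid genes was not tested. With a pseudocount of 1 or 50 the interaction was -14.93 or -10.15 for Fabp6 and -6.85 or -2.88 for Slc10a2, all still called. The interaction of Nr1h4 was no longer called without combination replicate 1 (-1.92, adjusted p = 0.0529).

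Fabp6 and Slc10a2 put the 7 arrays in the same order, from DBZ, dexamethasone replicate 2 and replicate 1, through combination replicate 1 and replicate 2, to vehicle replicate 2 and replicate 1 (Spearman rho = 1 over 7 arrays). The order also held among the 5 treated arrays alone (rho = 1). Nr1h4 followed Fabp6 with rho = 0.893 over 7 arrays and 0.80 over the treated ones, and Fgf15 with 0.821 and 0.70. Nr0b2 had rho = -0.536 with Fabp6 over 7 arrays and 0.30 over the treated ones, so its negative value over 7 arrays was not seen among the treated ones. These are descriptions over the same few arrays, which share group, tissue piece and scaling.

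By Pearson correlation of log2 values over the 7 arrays, the named genes outside this set most like Fabp6 were Mep1a (r = 0.996), which encodes the meprin alpha subunit of the brush border, Atp6v0e2 (0.995), a proton pump subunit, and Flii (0.994), an actin regulator. Those most like Slc10a2 were Cmc2 (0.996), Ctcf (0.989), the chromatin insulator protein, and Kif3a (0.986), a kinesin motor subunit. Those most like Nr1h4 were Dbndd2 (0.980), Cnn2 (0.977), a calponin, and Polr1c (0.974), an RNA polymerase subunit, and those most like Nr0b2 were Usf2 (0.988) and Ero1a (0.988) with Zfp277 (0.982). Mep1a is itself on the list of ileal markers used below and went from 699 and 608 with vehicle to between 2579 and 4812 with treatment.

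Of 18 other pathway genes tested, 1 was called higher in each comparison against vehicle, near the share of all tested probe sets. The basolateral exporter subunit Slc51a read 1353 and 1170 in vehicle arrays, 1569 and 2404 in dexamethasone arrays, 2476 in the DBZ array, and 1142 and 1367 in combination arrays. The single-drug arrays were above both vehicle arrays and the combination overlapped vehicle. The log2 changes of 0.62 ± 0.22 with dexamethasone and 0.97 ± 0.27 with DBZ were not called (limma, adjusted p = 0.0984 and 0.0539). Its interaction of -1.60 ± 0.35 was called (adjusted p = 0.0359) but ended when any array other than dexamethasone replicate 1 was left out of the 6 that have a partner in their group, with values of -1.30 to -1.73.

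Against vehicle, 7.22% of all tested probe sets rose with dexamethasone, 3.75% with DBZ and 4.38% with the combination. The shares that fell were 4.82%, 4.6% and 3.06%, and these shares hold for the lists below too. Of the other pathway genes listed, 18 were tested. With dexamethasone 1 rose and 7 fell, with DBZ 1 rose and 1 fell, and with the combination 1 rose and 3 fell, with medians of -0.14, -0.02 and -0.13 on the log2 scale against 0.02, -0.05 and -0.04 for all tested probe sets. The falls with dexamethasone included Cyp2b10 (-1.78 ± 0.17, limma, adjusted p = 0.000427) and Cyp3a11 (-1.64 ± 0.20, adjusted p = 0.00145), drug- and bile acid-metabolising cytochromes. They also included their regulator Nr1i2, the pregnane X receptor (-1.83 ± 0.20, adjusted p = 0.000931), and the sterol exporter subunit Abcg8 (-1.54 ± 0.18, adjusted p = 0.00119). Each of these 4 calls held when any 1 array was left out, and the 7 falls became 5 to 7. With DBZ and the combination the falls became 0 or 1 and 0 to 3.

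FXR targets of the intestine other than the 5 genes went both ways. Of 8 tested, 3 rose and 2 fell with dexamethasone, and 1 rose and 1 fell with DBZ and with the combination. Sdc1, the proteoglycan syndecan-1, rose by 1.53 ± 0.18 with dexamethasone (limma, adjusted p = 0.00103). Its changes with DBZ and the combination were 1.02 ± 0.22 and 0.96 ± 0.18, also called, but both calls ended without vehicle replicate 2 (adjusted p = 0.0507 and 0.0528), the second also without combination replicate 2 (0.78), and in the values as deposited it measured 0.05 and -0.02. All 4 probe sets of Sdc1 were called with dexamethasone, but 1 of them was at -0.16 with DBZ (adjusted p = 0.785) and called with the combination, and the other 2 were not called with DBZ (adjusted p = 0.0601 and 0.0589) or the combination (adjusted p = 0.0810 and 0.0727). The canalicular exporter Abcc2 measured 700 to 1078 over all arrays and was not called. Of the partners of the receptor, Rxra measured 417 to 489 and Nr5a2, which encodes LRH-1, 164 to 270, neither of them called against vehicle.

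Transcription factors known to act on ileal bile acid genes mostly fell or were not called. Of 16 tested, 4 fell with dexamethasone, 3 with DBZ and 3 with the combination, and 1 rose, Jun with the combination. Gata4, known for holding Slc10a2 and Fabp6 low in the proximal small intestine, read 660 and 469 in vehicle arrays, 222 and 219.8 in dexamethasone arrays, 191 in the DBZ array, and 353 and 338 in combination arrays. It fell by 1.29 with dexamethasone (SE 0.20, limma, adjusted p = 0.0043) and by 1.49 with DBZ (SE 0.25, adjusted p = 0.00977), and was at -0.67 ± 0.20 with the combination (adjusted p = 0.0737). The groups did not overlap, and the order of the group means ran opposite to that of Nr1h4. Its relative Gata6 fell by 1.13 with dexamethasone (SE 0.16, adjusted p = 0.00316) and by 1.98 with DBZ (SE 0.20, adjusted p = 0.00125).

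Other factors of this list showed no single course. Klf15, a glucocorticoid-responsive factor, fell by 2.22 with dexamethasone (SE 0.36, limma, adjusted p = 0.00517). Cdx2, a factor of intestinal identity, fell by 1.16 with dexamethasone (SE 0.19, adjusted p = 0.00534), but its other probe set was at -0.33. Hnf4a measured 2437 to 3763 and was not called by its brightest probe set, while 2 of its 4 probe sets were called higher with dexamethasone. The glucocorticoid receptor gene Nr3c1 measured 731 to 1390 and was not called against vehicle. The 3 falls with the combination became 0 or 1 without a combination array.

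The family of the binding protein had calls in each comparison against vehicle, and that of the carrier had none. In the fatty acid-binding protein family 6 other genes were tested: 1 rose and 2 fell with dexamethasone, 2 fell with DBZ and 1 with the combination. Over all tested probe sets 7.22% rose and 4.82% fell with dexamethasone, 4.6% fell with DBZ and 3.06% with the combination. Fabp1, the liver-type binding protein, fell by 0.89 with dexamethasone (SE 0.20, limma, adjusted p = 0.0186), a call that ended without any one of the vehicle and dexamethasone arrays (-0.80 to -0.97). Rbp2, which binds retinol, fell by 1.80 (SE 0.18, adjusted p = 0.000619), and Fabp2, the intestinal-type protein, measured 9520 to 17495 and was not called. In the SLC10 carrier family both tested relatives of Slc10a2, Slc10a3 and Slc10a6, were not called in any comparison against vehicle, and none had an unadjusted p under 0.05. On the receiving side of FGF15, Fgfr4 measured 63.7 and 89.9 with vehicle and 9.06 to 48.1 with treatment and fell with the combination (by 1.65, SE 0.36, adjusted p = 0.0231), but not without vehicle replicate 2 (-1.44) or combination replicate 1 (-2.04) or 2 (-1.26). Klb and Cyp7a1, which act in the liver, were at 3.17 to 32.1 and were not tested.

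**Figure D3:**
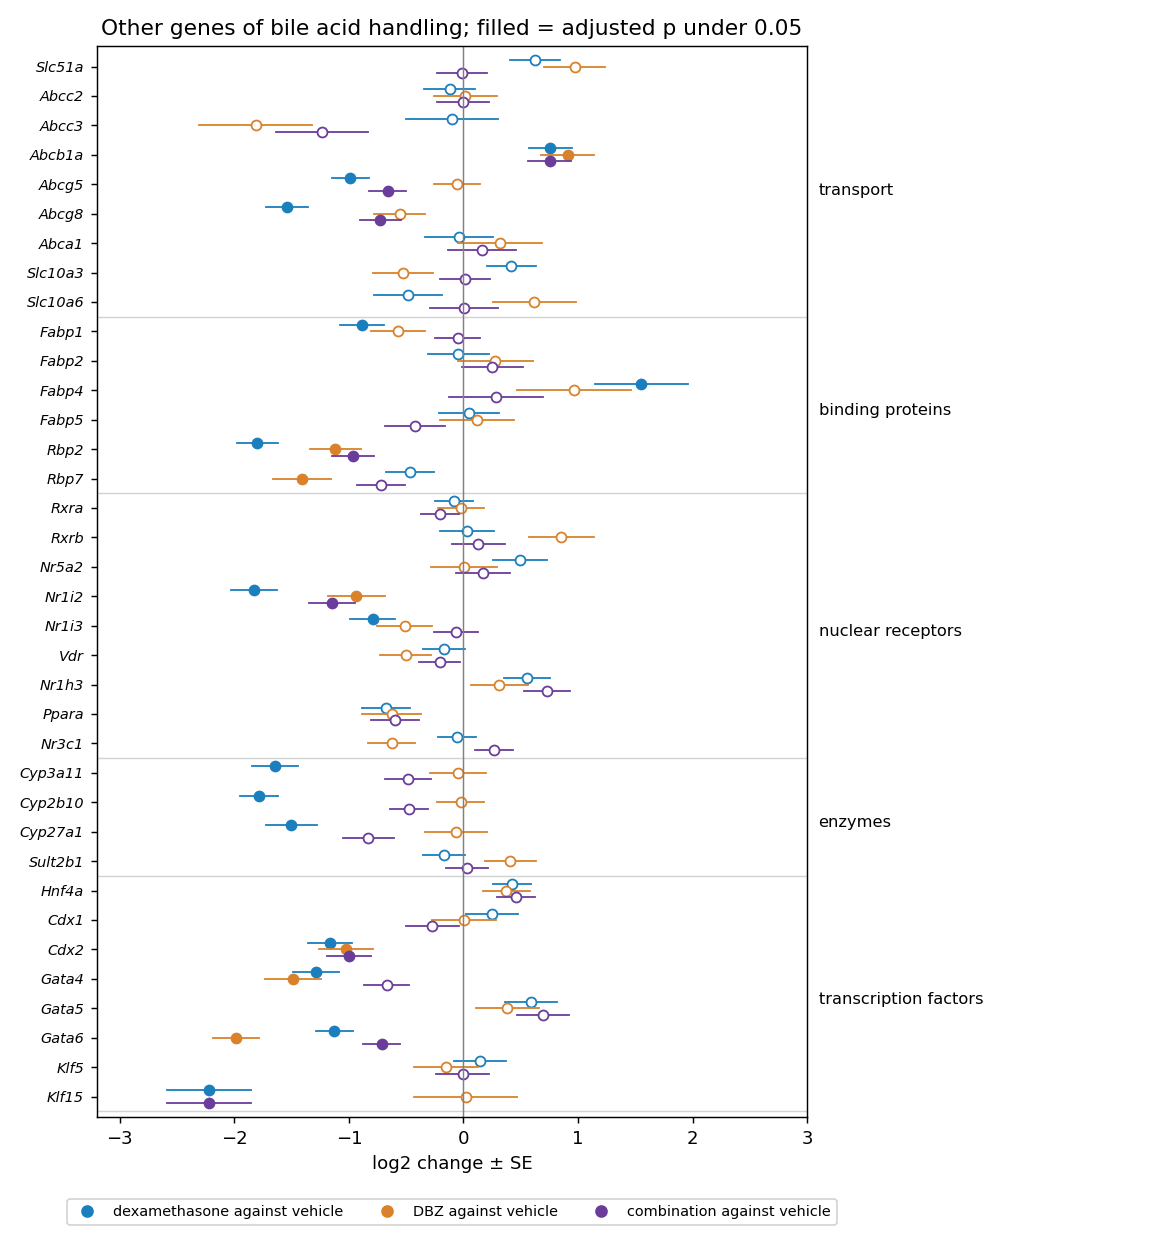
Log2 change ± SE against vehicle of other genes of bile acid handling, grouped by role, for dexamethasone (blue), DBZ (orange) and the combination (purple); filled points have an adjusted p under 0.05. Filled points lie mostly left of 0, such as Cyp2b10 at -1.78 with dexamethasone and Gata6 at -1.98 with DBZ, and Slc51a has no filled point.

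Markers of position along the gut moved with the same split between vehicle and treated arrays. Of 12 tested markers of the ileum, 7 rose with dexamethasone, 9 with DBZ and 6 with the combination and none fell, with median changes of 1.94, 2.14 and 1.29. Slc5a8, a carrier of short-chain fatty acids, measured 21.7 and 16.5 with vehicle and 361 to 713 with treatment, and rose by 3.98 ± 0.22, 4.53 ± 0.27 and 3.79 ± 0.22 in the 3 comparisons (limma, adjusted p = 2.37e-05, 5.26e-05 and 5.78e-05). The hormone gene Pyy rose by 3.12 ± 0.28, 3.28 ± 0.35 and 2.40 ± 0.28. Guca2a, which encodes guanylin, rose by 2.20 ± 0.20, 2.21 ± 0.25 and 2.07 ± 0.20. Summed over the 13 ileal markers, vehicle arrays reached 24245 and 22990 and treated arrays 35256 to 50459, with no overlap. Leaving out 1 array gave 5 to 7, 6 to 9 and 5 to 7 rises.

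Proximal markers went largely the other way. Of 16 tested, 7 fell with dexamethasone, 6 with DBZ and 5 with the combination, and 1 rose each time, with medians of -0.63, -0.65 and -0.48. Slc46a1, the proton-coupled folate carrier of the duodenum, fell by 3.26, 2.30 and 2.13 (SE 0.30, 0.37 and 0.30, limma, adjusted p = 0.000427, 0.00891 and 0.00435). Pdx1, a factor of the duodenum, measured 85.4 and 115 with vehicle and 1.58 to 9.25 with treatment and was too low on average to be tested. The marker that rose was Bco1, a carotenoid-cleaving enzyme, by 1.29 ± 0.29, 2.72 ± 0.35 and 3.06 ± 0.29, the first of which was no longer called without any one of the vehicle or dexamethasone arrays (adjusted p = 0.0605 to 0.0892). The summed signal of 19 proximal markers was 50224 and 50930 with vehicle and 27499 to 45843 with treatment. Leaving out 1 array gave 6 to 8, 4 to 7 and 1 to 6 falls, with 2 without vehicle replicate 1 and 1 without either combination array in the last comparison.

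**Figure D4:**
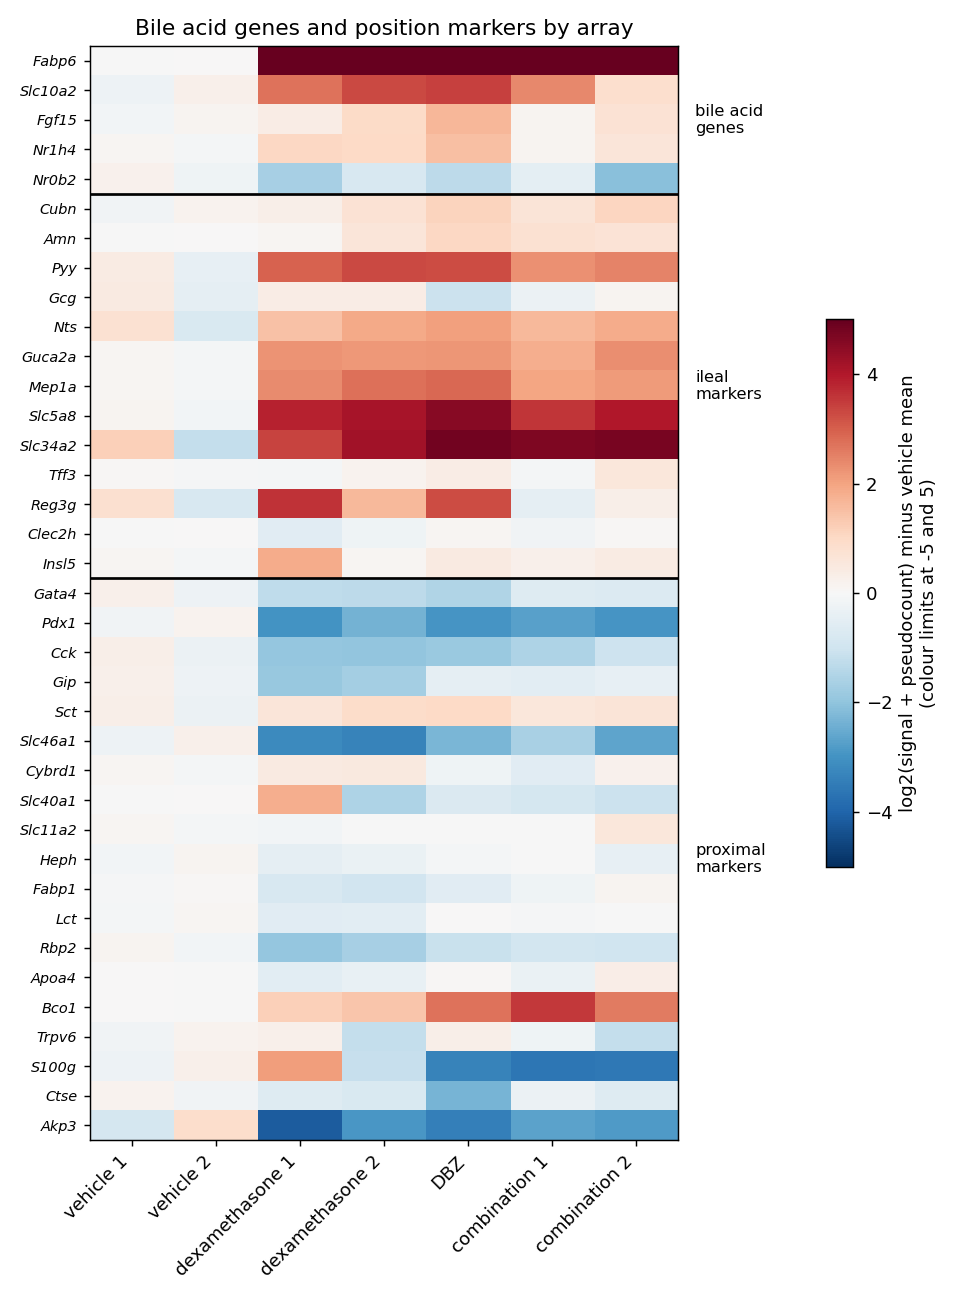
Difference of log2(signal + 12.3) from the vehicle mean in each array (columns) for the 5 bile acid genes, 13 ileal markers and 19 proximal markers (rows), with colours limited at -5 and 5, so Fabp6 lies beyond the scale in treated arrays. Most ileal markers are red and most proximal markers blue in all 5 treated arrays, with Bco1 and dexamethasone replicate 1 of S100g among the exceptions.

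The position markers thus split vehicle from treated arrays, as Fabp6 and Slc10a2 did, and the labels name no segment. Their part in the changes of the bile acid genes against vehicle was not tested, and a difference in the stretch of gut sampled and a difference between treatments cannot be told apart. In bulk tissue, fewer cells of a type and less RNA per cell cannot be told apart either. Between treated groups, no ileal marker was called by limma in the combination against DBZ or against dexamethasone. An unadjusted p under 0.05 was found for 5 and 3 of 12, and for 1683 and 1277 of all 13638 tested probe sets. Of the 12, 11 were lower with the combination than with DBZ and 6 lower than with dexamethasone, with medians of -0.28 and -0.04. Their part in the differences of the bile acid genes between treated groups was not tested either.

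Markers of other tissues showed that the arrays also differed in muscle. Of 7 tested smooth muscle genes, 6 rose with dexamethasone, 4 with DBZ and 3 with the combination, and their summed signal was 9531 and 6827 with vehicle and 14355 to 23182 with treatment. Tagln (1.49 ± 0.21, limma, adjusted p = 0.00279) and Actg2 (1.68 ± 0.23, adjusted p = 0.00272) were the clearest with dexamethasone. Without vehicle replicate 2 the 3 counts were 3, 1 and 0, and the dexamethasone count was also 3 without dexamethasone replicate 1. Of 13 enterocyte markers, 2 fell with dexamethasone, 1 with DBZ and none with the combination. With the combination 2 had an unadjusted p under 0.05 in limma, as did 3295 of all 13638 tested probe sets. Apob was at -2.33 ± 0.29 with dexamethasone (limma, adjusted p = 0.00152) and at -1.70 ± 0.35 with DBZ. Treh was at -1.28 ± 0.19 with dexamethasone (adjusted p = 0.00332). Villin, Vil1, measured 5603 to 7813 in all arrays and was not called. The part of muscle in these results was not tested.

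Of 9 colon markers, 6 had their highest signal in dexamethasone replicate 1. Car1 measured 7427 there and at most 52.4 elsewhere, and Retnlb 124 against at most 8.42. Hoxd12 and Hoxd13, also among them, were at the low end of the scale, at 3.95 and 24.0 there. Others did not follow: Slc26a3 measured 914 there against 1273 and 1188 with vehicle, and Aqp8 56.2 against 111 and 41.6. Of the 5 tested, none was called with dexamethasone, and 1 fell with DBZ and with the combination. With dexamethasone 2 had an unadjusted p under 0.05 in limma, as did 3665 of all 13638 tested probe sets. Without that array, with 1 dexamethasone array left, Fabp6 was at 9.56 with dexamethasone and Slc10a2 at 3.29. Of 2 tested liver markers, Serpina1b, which shares sequence with its paralogs, rose in all 3 comparisons (2.57 ± 0.46 with dexamethasone), while albumin, Alb, was at 2.07 to 27.8 in all arrays. The call with dexamethasone ended without vehicle replicate 2 (2.51), and those with DBZ and the combination without either vehicle array. Of 6 leukocyte markers none was called, and 2, 0 and 1 had an unadjusted p under 0.05. Over all 13638 tested probe sets 3665, 3600 and 3295 did so with dexamethasone, DBZ and the combination. Pancreas markers had 1 fall among 3 tested, with DBZ, and the 1 stomach marker tested was not called, with an unadjusted p under 0.05 for dexamethasone and the combination.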

How the data were processed

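Total RNA of mouse small intestine was labelled with biotin and hybridised to Affymetrix arrays. The deposited intensity values are MAS5 signals per probe set, per the submitters' processing notes; the sources used here give neither the MAS5 version nor a genome build. The table held 8 sample columns, of which 0 were left unused. The 2 DBZ columns differed in 6 probe sets, where 1 copy was at 0, and were averaged into 1 array, so the planned second DBZ array could not enter the fit.

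Arrays were brought to the same trimmed mean, 250 (2% trimmed at each end), the pseudocount 12.3 was added, and 64 control probe sets and those with a mean below 38.8 were left out. Group means were fitted with limma 3.58.1 in R 4.3.3 (lmFit, eBayes with an intensity trend, 3 residual and 6.83 prior degrees of freedom), with 2-sided p and Benjamini-Hochberg adjustment over 13638 probe sets. The p-values measure only the spread between these arrays. The fit was first tested on simulated data.

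A single symbol was given for 20393 probe sets, several for 691 and no symbol for 1606. For a listed gene the probe set of highest mean signal was used; of 188 genes on 16 lists, 160 were found and 111 tested. Named were all probe sets of the 5 genes, up to 4 members of each list by smallest p against vehicle, some fixed pathway genes, and the 3 genes most alike. The members and lists were chosen with earlier results of these data known. Where genes outside this rule were named (Jun, Vil1, Pdx1, Alb, Car1, Retnlb and S100g among them), they were chosen after their values were seen. Alternatives were other scalings, pseudocounts, filters and variance models, only the groups compared, a replicate block, both DBZ columns, and each array left out.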

Additional observations from a re-analysis of the deposited data

Results flagged for a closer look

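The difference that went with DBZ was not the same with and without dexamethasone in 3 of the 4 tested genes. In the interaction term of the limma fit, Fabp6 was at -12.12 on the log2 scale (adjusted p = 4.48e-05). Slc10a2 was at -4.81 (adjusted p = 0.0118) and Nr1h4 at -2.15 (adjusted p = 0.00939). Fabp6 and Slc10a2 passed the limit on mean signal only through their treated arrays, so the count of genes is a description. Over all tested probe sets 1.93% were called lower in this term and 2.07% higher. Markers of gut position moved in the same term: 6 of 12 tested ileal markers were called lower and 8 of 16 proximal markers higher, and their part in it was not tested. None of the 4 genes was called in the combination against dexamethasone (limma). An unadjusted p under 0.05 was found there for 3 of them and for 1277 of all 13638 tested probe sets. Vehicle and DBZ arrays both enter this term, with 1 DBZ array. For Fabp6, DBZ against vehicle was at 9.81, with both vehicle arrays below the pseudocount, and the combination against dexamethasone at -2.31. Against vehicle, the stretch of gut sampled and the treatment cannot be told apart.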

How the results depend on the processing

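The counts of the 4 tested genes called for dexamethasone and DBZ against vehicle and for the interaction stayed within 1.5 times their value under every alternative run. The genes behind these counts were not always the same. As deposited, Fabp6 and Slc10a2 rose and Nr0b2 fell with dexamethasone and with DBZ, and Nr1h4 was not called (0.06 and 0.56). With the stricter filter only 2 of the genes, Fabp6 and Nr1h4, were tested. For the combination against vehicle (1 call) there were 4 calls in the values as deposited, 2 with a pseudocount of 1, and 1 to 2 with 1 array left out. For the combination against DBZ (1 call) there were 0 calls in the values as deposited, with quantile normalisation, a pseudocount of 50, no filter, no intensity trend, robust eBayes, the replicate block, or (added after seeing the data) without both vehicle arrays, 2 with only the groups compared or both DBZ columns, and 0 to 1 with 1 array left out. Against dexamethasone, the combination and DBZ (0 calls each) had 0 to 1. With 1 array left out, a call came only for Fabp6, in fits that left 1 dexamethasone array. As deposited, log2 changes turned for Nr1h4 with the combination (-0.57), for Sdc1 with the combination (-0.0163), and for Slc51a with dexamethasone (-0.37) and DBZ (-0.0232). The Nr0b2 change turned in the combination against DBZ with a pseudocount of 1 (-0.14) and without combination replicate 1 (-0.80 to 0.82 with 1 array left out). Against dexamethasone it turned for the combination with a pseudocount of 50 (0.000794), without dexamethasone replicate 2 (0.36) and without combination replicate 2 (0.73; range -0.88 to 0.73), and for DBZ without dexamethasone replicate 2 (0.35; range -0.52 to 0.35). Apart from the scaling of the deposited values, whose vehicle arrays had a higher mean, the cause was not tested. Same-numbered arrays did not deviate together in every pair (correlations of 0.05, -0.12 and 0.11), so the replicate block rests on a number alone; with the replicate block the calls were 3, 3, 1, 0, 0, 0 and 3 over the 7 comparisons, against 3, 3, 1, 1, 0, 0 and 3 without it. Signals near the pseudocount limit Fgf15, Slc10a2 and Nr0b2.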
